A study of Mus musculus with 23 samples.

Results

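Elastic fibers are extracellular cables built by stromal cells, with a core of elastin laid down on a sheath of fibrillin microfibrils. Fibulins bridge the core and the sheath, and latent TGF-β binding proteins dock the inactive form of TGF-β onto the microfibrils. In breast tissue such fibers surround ducts and vessels and form part of the tumor stroma. The 10 genes described here, of 47643 in the tables, were chosen by symbol and cover these roles. Fbn1 and Fbn2 encode the fibrillins of the microfibril scaffold, and Eln encodes elastin. Fbln5 and Efemp2, which encodes fibulin-4, are needed to assemble and crosslink the elastin core, and Fbln1, Fbln2 and Efemp1, which encodes fibulin-3, are matrix and basement membrane fibulins. Ltbp1 binds latent TGF-β, and Ltbp2 is a microfibril-bound relative that does not. Fbln2 entered the set because it had been seen higher in the knockout tumors, so the values of the knockout against wildtype contrast are descriptions with no test.

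Tumors were dissociated, and their total RNA was measured by 3′ mRNA sequencing in 23 libraries. The tumors came from female mice that develop mammary carcinomas from the polyoma middle T (PyMT) oncogene on a C57BL/6 background. In the neutralization experiment, PyMT WT mice received IgG1 isotype control (5 libraries) or anti-IL-38 (6 libraries) in weekly doses over 5 weeks, started when the first tumor measured 0.6 cm. In the γδ TCR experiment, begun at 13 weeks of age, PyMT WT mice received IgG (4 libraries), and PyMT mice lacking IL-38, a cytokine of the IL-1 family, received IgG (4 libraries) or an antibody that blocks γδ TCR signaling (4 libraries) for the same 5 weeks. The design asks whether loss or neutralization of IL-38 changed tumor gene expression, and whether γδ TCR blockade changed it in IL-38 KO tumors. The sources used here do not name the promoter driving PyMT or the tissues in which the knockout acts. Levels are given as CPM (the reads of a gene scaled to one common library total) where all groups are set side by side and as deposited normalized counts within a comparison. Reads come from transcript ends and were not divided by length, so levels were not compared between genes.

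Depth ran from 6273049 to 15879164 reads on genes per library. Il1f10, the gene of IL-38, had 0 reads in all 23 libraries, so the genotype labels could not be checked on it. The library of IL-38 KO tumor replicate 4 with IgG and all 4 libraries with γδ TCR blockade stood apart: processed pseudogenes took 1.31% to 1.98% of their reads and 0.0943% to 0.191% in the remaining 18 libraries, and they were the shallowest, at 6273049 to 8794202 reads. For the blockade comparison each gene's log2 fold change is therefore also given without KO IgG replicate 4. Defining markers of fibroblasts, pericytes, endothelium, luminal and basal epithelium, leukocytes and adipocytes were all detected in every group. In bulk tumor, fewer cells of a type and less RNA per cell cannot be told apart.

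RefSeq promoters on GRCm38.p6 (250 bases before to 50 after the annotated start) were at hand for 8 of the 10 genes, with 13 promoters in all. Those of Fbln2 and Fbln1, whose levels varied together within groups, and of Fbn1 and Ltbp2, which formed another such pair, are shown on the strand of the gene. Capitals mark matches on either strand to any of 6 motifs. A GC box was searched as GGGCGG. The letters for the AP-1 motif of Fos and Jun were TGANTCA. The SMAD motif, read by the mediators of TGF-β signaling, was searched as CAGACA. The letters of the TATA box were TATAAA. For TEAD, the partner of YAP, the search used GGAATG. The motif of RBPJ, the DNA-binding partner of Notch, was searched as TGGGAA. The Fbln2 window lies at chr6:91212514-91212813 on the plus strand, Fbln1 at chr15:85205758-85206057 on the plus strand, Fbn1 at chr2:125506389-125506688 on the minus strand and Ltbp2 at chr12:84876442-84876741 on the minus strand.
Fbln2: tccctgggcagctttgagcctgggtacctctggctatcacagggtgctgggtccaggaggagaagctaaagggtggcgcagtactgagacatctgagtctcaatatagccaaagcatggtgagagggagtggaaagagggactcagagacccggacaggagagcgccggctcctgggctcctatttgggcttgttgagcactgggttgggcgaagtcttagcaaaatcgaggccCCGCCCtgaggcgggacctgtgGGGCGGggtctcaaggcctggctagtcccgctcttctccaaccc
Fbln1: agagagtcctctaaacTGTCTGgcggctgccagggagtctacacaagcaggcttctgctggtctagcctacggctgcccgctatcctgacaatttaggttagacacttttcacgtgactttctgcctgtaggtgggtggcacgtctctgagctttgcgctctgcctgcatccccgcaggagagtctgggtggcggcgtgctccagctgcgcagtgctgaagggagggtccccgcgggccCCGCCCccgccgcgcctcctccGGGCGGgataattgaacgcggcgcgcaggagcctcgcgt
Fbn1: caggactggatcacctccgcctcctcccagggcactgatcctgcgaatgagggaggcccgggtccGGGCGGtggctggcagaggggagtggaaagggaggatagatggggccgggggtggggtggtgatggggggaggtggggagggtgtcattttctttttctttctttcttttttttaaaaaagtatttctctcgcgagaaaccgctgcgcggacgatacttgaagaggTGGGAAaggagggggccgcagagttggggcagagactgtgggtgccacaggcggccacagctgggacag
Ltbp2: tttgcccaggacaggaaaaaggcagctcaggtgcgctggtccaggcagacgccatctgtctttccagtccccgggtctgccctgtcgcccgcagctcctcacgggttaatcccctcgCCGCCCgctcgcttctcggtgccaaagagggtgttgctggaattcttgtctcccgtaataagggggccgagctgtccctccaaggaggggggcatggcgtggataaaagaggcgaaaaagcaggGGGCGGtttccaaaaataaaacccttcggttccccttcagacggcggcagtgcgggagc
The 2 GC boxes of Fbln2 begin 16 bases before and 6 after the start, and those of Fbln1 11 before and 11 after it. Fbn1 holds 1 GC box 185 bases before the start and 1 RBPJ match 19 bases before it, and Ltbp2 holds GC boxes 133 and 9 bases before it. The Fbln1 window also holds 1 SMAD match, 234 bases before the start. A second Fbln1 window, not shown, has no GC box. It holds 1 SMAD match 175 bases and 1 RBPJ match 247 bases before its own start. A GC box occurred in 9 of the 13 promoters, against 35.7% of all 32851 promoters of this length, an RBPJ match in 6 of 13, against 25.6%, and a SMAD match in 4 of 13, against 21.04%. The windows of genes with several annotated starts overlap in part (2 of Efemp2 and both of Fbln1), so the 13 are not independent. Their bases were 48.7% to 78.3% G or C, against a median of 52.7% over all promoters, and the shares were not matched for it. None of the 13 held a TATA box (13.6% of all promoters) or a TEAD match (14.7%), and only Efemp1 an AP-1 match (1 of 13, against 7.81%).

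Fbln2 was read at 28.2 to 141 CPM over the 23 tumors. In WT tumors with IgG it stood at 34.7, 40.9, 35.4 and 42.0 CPM in replicates 1 to 4, and in IL-38 KO tumors with IgG at 65.0, 90.6, 110.2 and 72.4 CPM. All 4 KO values lay above all 4 WT values. Under γδ TCR blockade KO tumors gave 76.8, 81.8, 40.7 and 141 CPM, so 3 of 4 lay above every WT IgG tumor and the lowest fell inside the WT range. The isotype tumors of the neutralization experiment held 32.4, 38.4, 28.2, 81.5 and 97.1 CPM, which spans both the WT and much of the KO range although these mice were also wildtype. Anti-IL-38 tumors ranged from 34.9 to 72.2 CPM with a median of 55.9, inside the isotype range. The order of group means was KO with blockade (85.0), KO IgG (84.6), isotype (55.5), anti-IL-38 (53.1) and WT IgG (38.2 CPM), and each pair of neighbors in it overlapped. The WT IgG tumors had the narrowest spread, with a coefficient of variation of 9.71%, against 56.8% in the isotype tumors.

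The isotype tumors had the lowest mean CPM for 8 of the 10 genes, all but Fbln1 and Fbln2. Fbn1 averaged 86.9 ± 29.4 CPM in isotype, 108 ± 35.5 in anti-IL-38, 141 ± 13.5 in WT IgG, 136 ± 12.6 in KO IgG and 176 ± 39.2 CPM in KO tumors with blockade. Eln, the core protein, averaged 126 ± 40.0, 172 ± 36.3, 223 ± 59.4, 270 ± 98.8 and 263 ± 79.4 CPM in the same order of groups. Fbln1, Fbln5, Efemp2 and Ltbp1 overlapped between all pairs of groups. The blockade tumors were deposited in a table normalized on its own, while the other 4 groups share a table, and no test was made between the experiments.

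**Figure D1:**
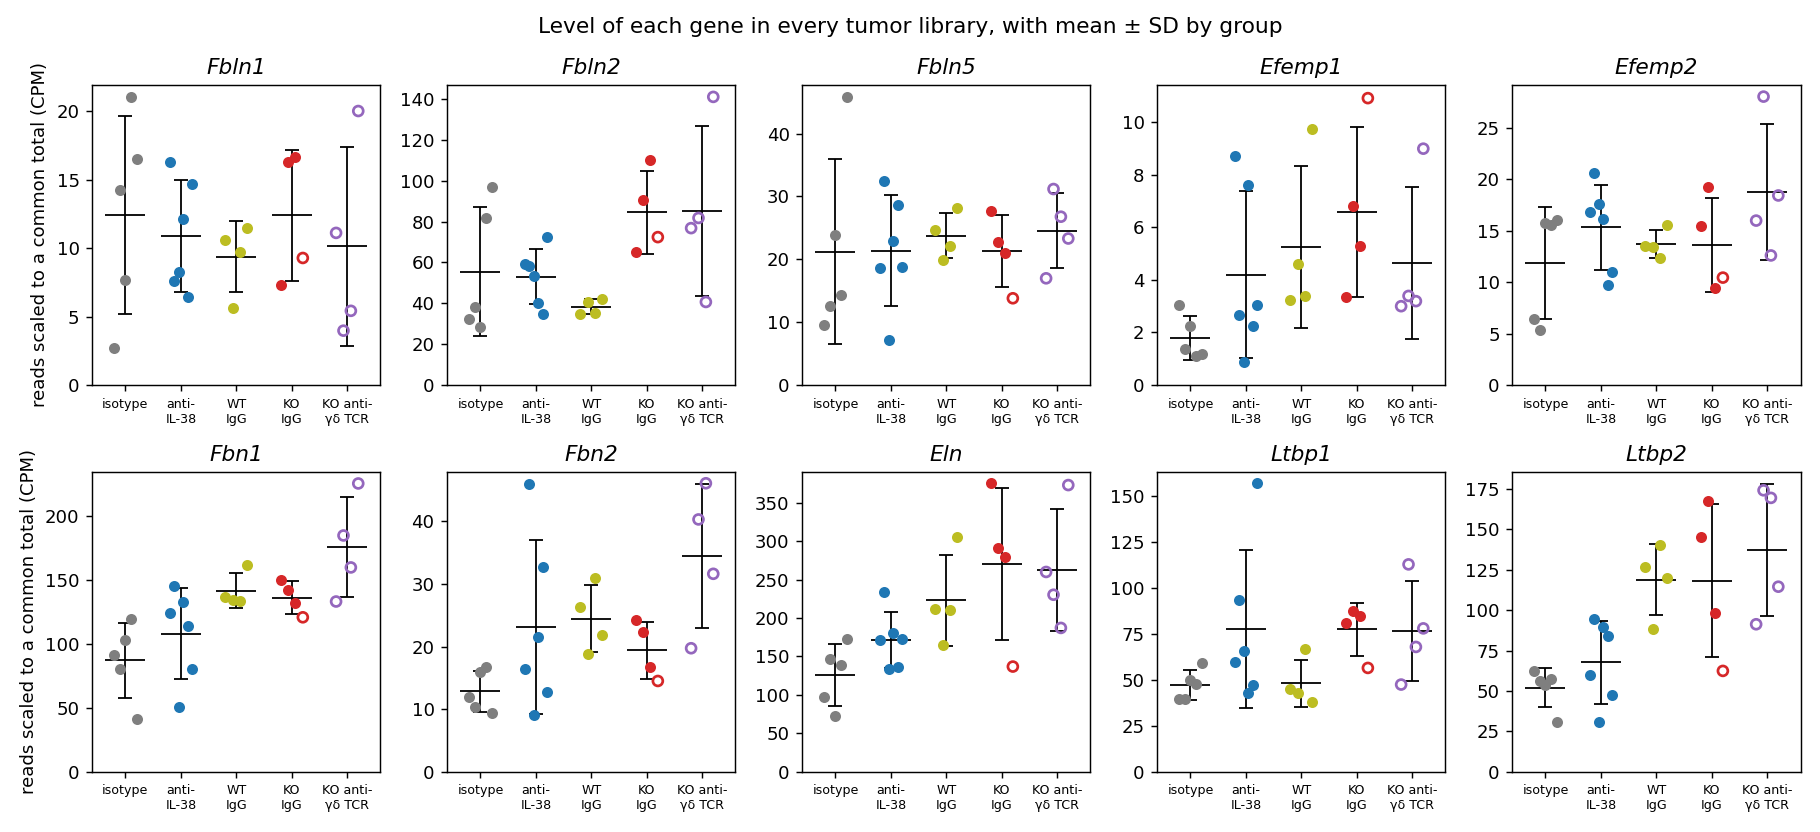
CPM of each of the 10 genes in every tumor library of the 5 groups, with bars for mean ± SD. Open circles are the 5 libraries with over 1% of reads on processed pseudogenes. Fbln2 separates KO IgG from WT IgG, Fbn1 has its lowest mean in the isotype tumors, and Fbln1 and Fbln5 overlap between all groups.

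In the knockout contrast, Fbln2 was the member with the largest difference, at 1007 ± 242 normalized counts in KO IgG against 448 ± 49.8 in WT IgG (SD, n = 4 each), or 1.14 on the log2(normalized count + 1) scale that all log2 fold changes here use. Ltbp1 followed at 921 ± 159 against 564 ± 149 (log2 fold change 0.72). Its KO tumors held 955, 1024, 1019 and 687 normalized counts and its WT tumors 517, 516, 781 and 440, so 3 of 4 KO tumors stood above every WT tumor. Fbln1 (0.39), Efemp1 (0.37) and Eln (0.25) had positive log2 fold changes with overlapping ranges. Fbn1 (-0.03), Efemp2 (-0.04) and Ltbp2 (-0.06) lay near 0, and Fbln5 (-0.16) and Fbn2 (-0.31) below it. Thus 5 of 10 were positive, and the median over the 10 genes was 0.11, against 0.005 over all genes tested. Without KO IgG replicate 4, the library that stood apart, 9 of 10 were positive and the median was 0.14. Fbn1 (0.02), Efemp2 (0.06), Ltbp2 (0.20) and Fbln5 (0.02) then lay above 0, Fbn2 was at -0.19, and Efemp1 had moved down to 0.08. Fbln2 was the only member whose ranges did not overlap, where 3.66% of 16563 genes were separate and higher and 3.41% separate and lower. Across all genes limma called 1 (0.00604%), the pseudogene Gm10093, named after its value was seen.

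The spread of Eln in KO tumors came with 1 library. Its values were 4431, 3391, 3348 and 1664 normalized counts in KO IgG replicates 1 to 4, against 2421, 1989, 2448 and 3551 in WT IgG. Replicate 4, the library that stood apart, was lower than every WT tumor, and without it the log2 fold change of Eln was 0.54. Ltbp2 was likewise lowest in replicate 4, with 1715, 1954, 1176 and 759 normalized counts in KO IgG and 1068 to 1637 in WT IgG. Its log2 fold change turned from -0.06 to 0.20 without replicate 4, while that of Fbln2 moved only to 1.20 and that of Ltbp1 to 0.86. Leukocyte marker sums in the same tumors were 1817 to 2628 CPM in WT IgG, 1452 to 1951 CPM in KO IgG replicates 1 to 3 and 635 CPM in replicate 4; fibroblast marker sums overlapped (3297 to 6744 against 3973 to 4798 CPM). Adipocyte marker sums were 295 to 409 CPM in WT IgG and 51.5 to 271 CPM in KO IgG, without overlap, and 6 of 6 adipocyte markers had negative log2 fold changes (median -1.09). Skeletal muscle markers were positive in 6 of 6 (median 2.57), with sums of 2.001 to 70.3 against 15.8 to 408 CPM. Pericyte and smooth muscle sums overlapped, at 366 to 780 CPM in WT IgG (mean 589) and 274 to 415 CPM in KO IgG (mean 349). The part of these marker sums in the values of the 10 genes was not tested.

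After IL-38 neutralization, none of the 10 genes passed the test and none separated the groups (0.4% of 16002 genes were separate and higher, 0.644% separate and lower), while all 10 had positive log2 fold changes. limma called 0 of 16002 genes at an adjusted p under 0.05 (0%; 1682 at an unadjusted p under 0.05, and 0 adjusted and 1714 unadjusted by edgeR, 75 adjusted by DESeq2), so a lack of calls was shared by the whole transcriptome. The median over the 10 genes was 0.45, from 0.08 to 0.97, against 0.002 over all genes, of which 50.2% were positive. By edgeR and DESeq2 9 of 10 were positive, with Fbln1 turning to -0.14 by either. Means of normalized counts were lower in anti-IL-38 than in isotype tumors for Fbln1 (142 against 157) and Fbln2 (695 against 700).

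Eln had the smallest adjusted p of the set. Its isotype tumors held 1184, 1865, 951, 1720 and 2206 normalized counts and its anti-IL-38 tumors 1693 to 3057 with a median of 2188, so 3 of 6 treated tumors lay above every control. The mean was 2241 ± 463 (SD, n = 6) against 1585 ± 511 (n = 5), a log2 fold change of 0.54 ± 0.21 (SE; 95% interval 0.09 to 0.99; limma adjusted p = 0.432). Ltbp1 gave 1014 ± 550 against 596 ± 114 normalized counts, with a log2 fold change of 0.63 (0.02 to 1.25; limma adjusted p = 0.468). Replicate 6 of the anti-IL-38 tumors, at 2017 normalized counts, was the highest of all, and without it the value was 0.40.

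The fibrillins and the other members had intervals that included 0. Fbn2 stood at 298 ± 178 against 162 ± 41.8 normalized counts (log2 fold change 0.71, interval -0.02 to 1.45, limma adjusted p = 0.481). Its treated tumors ran from 133 to 601, with 3 of 6 above every control. Fbn1 gave 0.36 (interval -0.24 to 0.96), Ltbp2 0.37 (-0.20 to 0.93) and Efemp2 0.53 (-0.19 to 1.25). Efemp1, the member with the fewest reads (11 to 117 per library over all groups), gave 0.97 with an interval of -0.12 to 2.06. For Fbln2 the difference was 0.13, from -0.55 to 0.81 (limma adjusted p = 0.904). For Fbln5 (0.16, interval -0.72 to 1.04) and Fbln1 (0.08, interval -0.90 to 1.05) it was small beside its interval. Fibroblast marker sums were 1448 to 4362 CPM (median 2811) in isotype and 1625 to 4900 CPM (median 4426) in anti-IL-38 tumors. Luminal marker sums were 1634 to 3374 CPM (median 2060) and 2411 to 4260 CPM (median 3006) in the same order, with 8 of 8 markers positive (median log2 fold change 0.70). Pericyte and smooth muscle sums were 139 to 417 (median 258) and 171 to 1769 CPM (median 400), with 8 of 9 markers positive (median 0.90). The part of these sums was not tested.

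**Figure D2:**
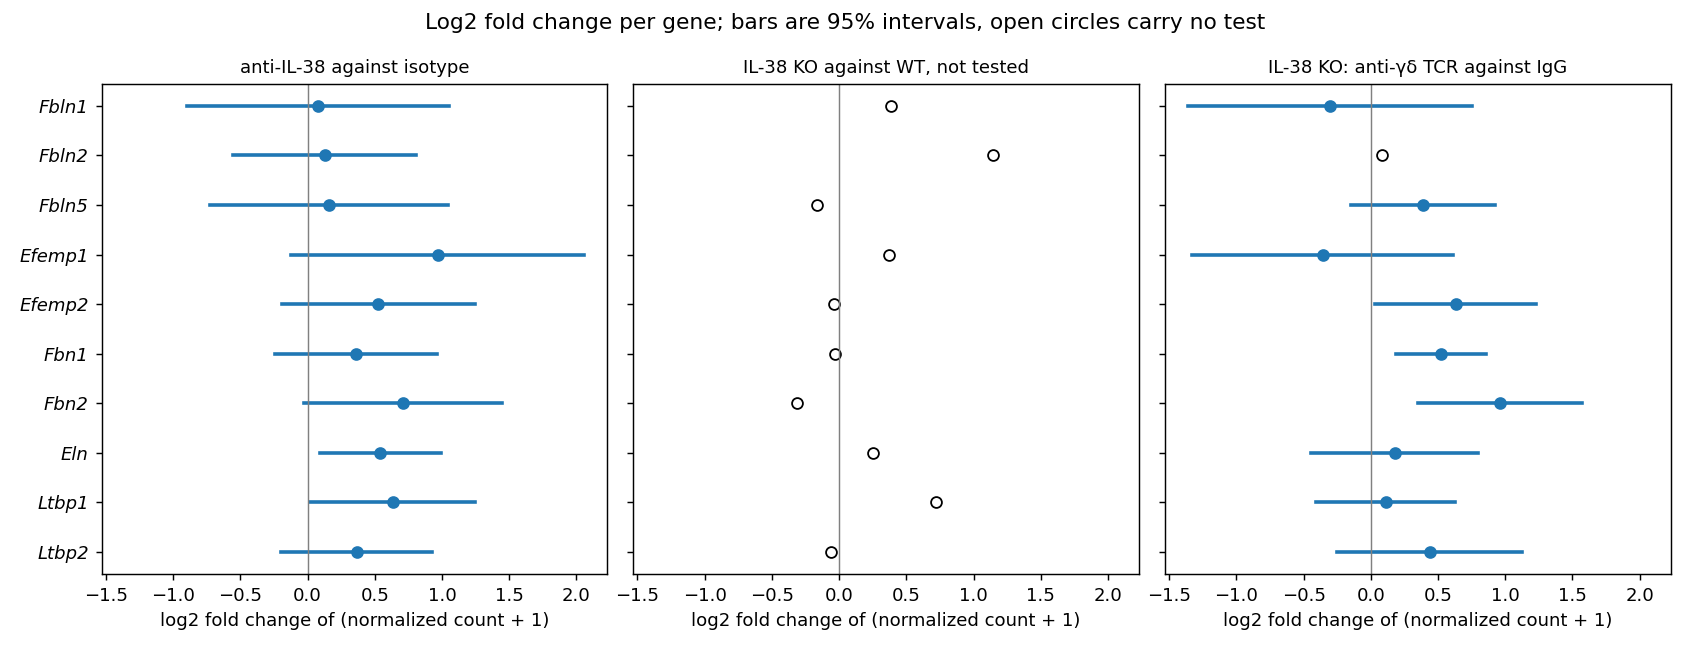
Log2 fold change of (normalized count + 1) for each gene in the 3 comparisons of the design. Bars are 95% intervals from limma. Open circles carry no test because Fbln2 had been seen higher in the knockout contrast, whose KO IgG libraries are also the blockade controls. All 10 points lie above 0 after anti-IL-38. Under γδ TCR blockade the intervals of Fbn1, Fbn2 and Efemp2 lie above 0, and none of these genes passed the adjusted threshold.

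Under γδ TCR blockade in IL-38 KO tumors, the fibrillins had the smallest adjusted p of the set. Fbn1 stood at 1393, 1808, 1811 and 2179 normalized counts with the antibody and at 1327, 1254, 1224 and 1149 with IgG. In normalized counts all 4 treated tumors lay above all 4 controls, as 4.57% of 16481 genes did in this comparison (4.98% were separate and lower, with 0 of the 10 genes among them). The mean was 1798 ± 321 against 1238 ± 74.0 (SD, n = 4 each), a log2 fold change of 0.52 ± 0.15 (SE; interval 0.19 to 0.86; limma adjusted p = 0.0806). In CPM the ranges of Fbn1 overlapped, and 3 of 4 treated tumors lay above every control. Treated replicate 1 (133 CPM) fell inside the control range of 121 to 150 CPM. Fbn2 held 207, 395, 523 and 306 against 214, 197, 155 and 138 normalized counts, so 3 of 4 treated tumors exceeded every control. Its log2 fold change was 0.96 ± 0.28 (interval 0.35 to 1.57; limma adjusted p = 0.0791). Neither passed 0.05 by limma or edgeR (adjusted p = 0.151 and 0.134). Both did by DESeq2 (adjusted p = 0.0251 and 0.0173), which called 1033 of 16481 genes (6.27%), 424 of them higher. Without KO IgG replicate 4 the values were 0.49 (limma adjusted p = 0.0742) for Fbn1 and 0.85 (limma adjusted p = 0.0752) for Fbn2.

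Efemp2 gave 191 ± 57.8 against 123 ± 37.7 normalized counts, and its log2 fold change was 0.63 (interval 0.03 to 1.23; limma adjusted p = 0.205). Its reads can include those of Mus81, which overlaps it on the opposite strand. Ltbp2 (0.44, interval -0.25 to 1.13) and Fbln5 (0.39, -0.15 to 0.93) lay above 0 with intervals that included it, and without KO IgG replicate 4 they were at 0.19 and 0.22. Efemp2 was then at 0.55 (limma adjusted p = 0.262). Eln (0.18, limma adjusted p = 0.770) and Ltbp1 (0.11, limma adjusted p = 0.831) turned to -0.10 and -0.01 without KO IgG replicate 4. Fbln1 (-0.30) and Efemp1 (-0.36) had negative values, with intervals of -1.36 to 0.75 and -1.33 to 0.61, and stood at -0.39 and -0.06 without it. Fbln2, whose controls belong to the contrast that chose it, stood at 858 ± 374 against 772 ± 190 normalized counts, with no test; its log2 fold change was 0.04 without that library. Of the 10 genes 8 had positive log2 fold changes (6 without KO IgG replicate 4), and the median was 0.28 (0.11 without it), against 0.02 over all genes.

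The whole comparison turned on that library. limma called 0 of 16481 genes (0%; 3570 at an unadjusted p under 0.05, 0 adjusted and 3078 unadjusted by edgeR, 1033 adjusted by DESeq2). Without KO IgG replicate 4 it called 2357 genes (14.3%), 1557 higher (9.45%) and 800 lower (4.85%), and none of the 10 was among them. The 3 remaining controls then had processed pseudogene reads of at most 0.191% and all 4 treated tumors of at least 1.31%, so this difference between libraries and the antibody cannot be told apart. Leukocyte marker sums were 496 to 669 CPM under blockade, 635 CPM in KO IgG replicate 4 and 1452 to 1951 CPM in replicates 1 to 3. Fibroblast marker sums were 3164 to 3578 CPM in 3 treated tumors, below the KO IgG range of 3973 to 4798 CPM. The sum was 9961 CPM in treated replicate 4, which also held the highest Fbn1 (225 CPM), Fbln2 and Eln of its group. Pericyte and smooth muscle sums were 271 to 645 CPM under blockade against 274 to 415 CPM in KO IgG, with 8 of 9 markers positive (median log2 fold change 0.67). Basal epithelial sums were 53.8 to 172 against 79.8 to 83.2 CPM, with 4 of 5 markers positive (median 0.51). The part of these sums in the fibrillin values was not tested.

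The genes that build and hold elastic fibers around these 10 did not pass the test either. Of 23 other elastic fiber and microfibril genes, 22 had enough reads, and limma called 0 in each of the 3 comparisons. After anti-IL-38 18 of 22 were positive with a median log2 fold change of 0.34. Among them Emilin1, which encodes a microfibril-associated glycoprotein, was at 0.86 and Emilin2 at -0.48 (limma adjusted p = 0.420 for both). In KO against WT tumors Loxl2, a lysyl oxidase-like crosslinking enzyme, stood at 251 ± 21.7 against 155 ± 22.3 normalized counts, with all 4 KO tumors above all 4 WT tumors, as 3.66% of all genes were. Under γδ TCR blockade the median was 0.20, and without KO IgG replicate 4 limma called Adamtsl5, an ADAMTS-like microfibril protein, lower (log2 fold change -2.45, adjusted p = 0.0148) at only 4.58 to 31.9 normalized counts in the treated tumors, in a fit that called 4.85% of all genes lower.

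Of 10 genes for TGF-β ligands and matrix-binding integrins, limma again called 0 in each comparison. Tgfb2 stood at 2160 ± 209 in KO IgG against 1316 ± 234 normalized counts in WT IgG without overlap. Tgfb3 was also separate and higher in KO IgG, again beside 3.66% of all genes, and the other genes of this list overlapped. Tgfb3 was at 2774 ± 474 in anti-IL-38 against 1787 ± 1010 in isotype tumors (log2 fold change 0.88, limma adjusted p = 0.455) and at 3196 ± 588 under γδ TCR blockade against 2284 ± 136 in KO IgG (0.47, limma adjusted p = 0.112). Itga5, a subunit of the fibronectin receptor, had 99.6 ± 31.2 normalized counts under blockade against 31.2 ± 22.1 (log2 fold change 1.87, limma adjusted p = 0.0665). Tgfb3 and Itga5 were both separate and higher under blockade, as 4.57% of 16481 genes were, and the other genes of this list overlapped. Without KO IgG replicate 4 Itga5 passed as higher (2.27, limma adjusted p = 0.00301) and Tgfb1 as lower (-0.86, limma adjusted p = 0.0189), where 9.45% of all genes passed as higher and 4.85% as lower.

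The 2 wildtype control groups differed in part of the set. Both were PyMT WT mice given control IgG, the isotype tumors in the neutralization experiment and the WT IgG tumors in the γδ TCR experiment. In WT IgG tumors Ltbp2 was 2.15-fold, Efemp1 2.55-fold, Fbn2 1.77-fold and Fbn1 1.59-fold the isotype level in normalized counts, and in each the ranges did not overlap. For Efemp1 the margin was narrow, at 36.85 in the lowest WT IgG tumor (37 reads) and 36.82 in the highest isotype tumor (39 reads). For Fbn1 the isotype tumors held 1112, 1018, 1343, 1469 and 527 and the WT IgG tumors 1562, 1619, 1556 and 1875 normalized counts. For Ltbp2 they held 759, 714, 699, 704 and 396 against 1453, 1068, 1637 and 1393. Thus 4 of 10 genes were separate and higher, where 3.57% of 16099 genes were, and 0 were separate and lower (3.45% of all genes). The median log2 difference was 0.48, against 0.02 over all genes, and no test was made of it. Fbln2 ran the other way at 0.72-fold, with overlapping ranges. In the same libraries fibroblast marker sums were 3297 to 6744 CPM in WT IgG against 1448 to 4362 in isotype, pericyte and smooth muscle sums 366 to 780 against 139 to 417, and adipocyte sums 295 to 409 against 40.9 to 93.6 CPM. Experiment, time of treatment and control antibody cannot be told apart here.

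Within groups the 10 genes did not all vary together. Over the 19 libraries of the larger table, with each group's mean removed on the log2 scale, Fbn2 and Ltbp2 had a Pearson r of 0.80 (Spearman's rho 0.83), Fbn1 and Ltbp2 0.75 (0.65) and Fbn1 and Fbn2 0.70 (0.69). After leaving out the 2 tumors farthest from the median of the first gene of each pair, these were 0.74, 0.56 and 0.65. Fbln2 had its highest values with Fbln1 (0.66, rho 0.62), Ltbp1 (0.50, rho 0.51) and Eln (0.48, rho 0.42), and was negative with Ltbp2 (-0.46) and Fbn1 (-0.42). The last was -0.05 when isotype replicate 5 and anti-IL-38 replicate 3 were left out. The median over all 45 pairs was 0.18. The points share libraries, depth and tumor composition, and these values are descriptions. In the 8 libraries of the smaller table, 4 of which are the KO IgG libraries again, r was 0.87 for Fbn2 with Ltbp2, 0.56 for Fbn1 with Fbn2 and 0.38 for Fbn1 with Ltbp2. For Fbln2 it was 0.73 with Fbln1, 0.40 with Eln, 0.08 with Ltbp1 and -0.41 with Ltbp2, and it turned to 0.28 with Fbn1.

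**Figure D3:**
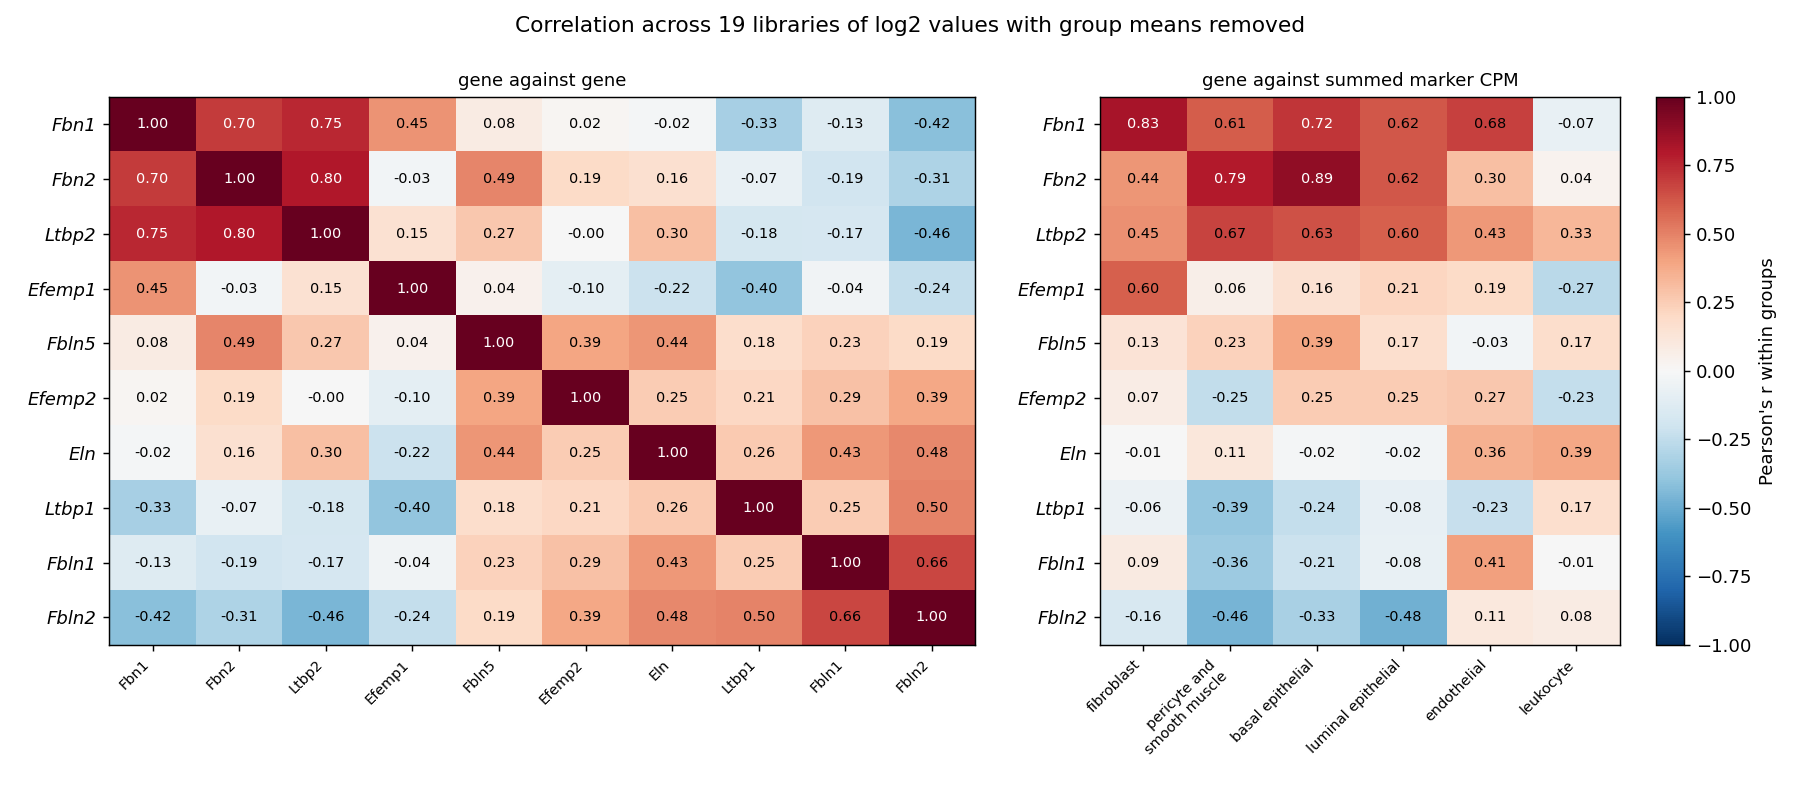
Pearson's r within groups over 19 libraries, between the 10 genes (left) and between each gene and summed markers of 6 cell types (right). Fbn1, Fbn2 and Ltbp2 form a block with r of 0.70 to 0.80, and Fbln2 is positive with Fbln1 (0.66) and at -0.42 with Fbn1, or -0.05 without isotype replicate 5 and anti-IL-38 replicate 3.

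In the larger table Fbn1, Fbn2 and Ltbp2 had positive r with the marker sums of several cell types. Fbn1 and summed fibroblast markers had r of 0.83 (rho 0.69), which was 0.59 without the same 2 tumors. Fbn2 had r of 0.89 with basal epithelial markers (rho 0.85, and r of 0.82 without the 2 farthest tumors). With pericyte and smooth muscle markers its r was 0.79 (rho 0.58, and r of 0.63 without those 2 tumors). Anti-IL-38 replicate 2 held the highest sum of both lists (261 and 1769 CPM), so these are not separate results. Ltbp2 stood at 0.67 with pericyte and smooth muscle markers and Efemp1 at 0.60 with fibroblast markers. With luminal markers Fbn1 and Fbn2 were at 0.62 and Ltbp2 at 0.60. Fbln2 was negative with luminal (-0.48), pericyte (-0.46) and adipocyte markers (-0.54). With fibroblast markers it was at -0.16 (rho -0.04), which turned to 0.29 without anti-IL-38 replicate 3 and isotype replicate 5. In the smaller table, however, Fbln2 was at 0.76 with fibroblast and 0.46 with luminal markers, so its values with the marker sums did not hold across the tables.

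The tumors with the fewest fibroblast marker reads differed from each other. Isotype replicate 5 had the lowest fibroblast marker sum of all 23 libraries (1448 CPM) and the lowest Fbn1 (41.2 CPM), with Fbn2 at 9.38 and Ltbp2 at 30.9 CPM, the lowest of its group. The same tumor held the highest Fbln5 of all 23 libraries (45.8 CPM) and the highest Fbln2 (97.1), Eln (172) and Ltbp1 (59.2 CPM) of the isotype group. Anti-IL-38 replicate 3, next in fibroblast markers at 1625 CPM, was likewise lowest of its group for Fbn1 (50.8), Fbn2 (9.11) and Ltbp2 (30.9 CPM), and its Fbln2 (53.5 CPM) was near the group median. Unlike isotype replicate 5, it held the lowest Fbln5 of all 23 libraries (7.21 CPM). Its Eln was the lowest of its group in CPM (134, against 137 in replicate 5). In normalized counts replicate 5 was the lowest for Eln, at 1693 against 1955 in replicate 3.

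**Figure D4:**
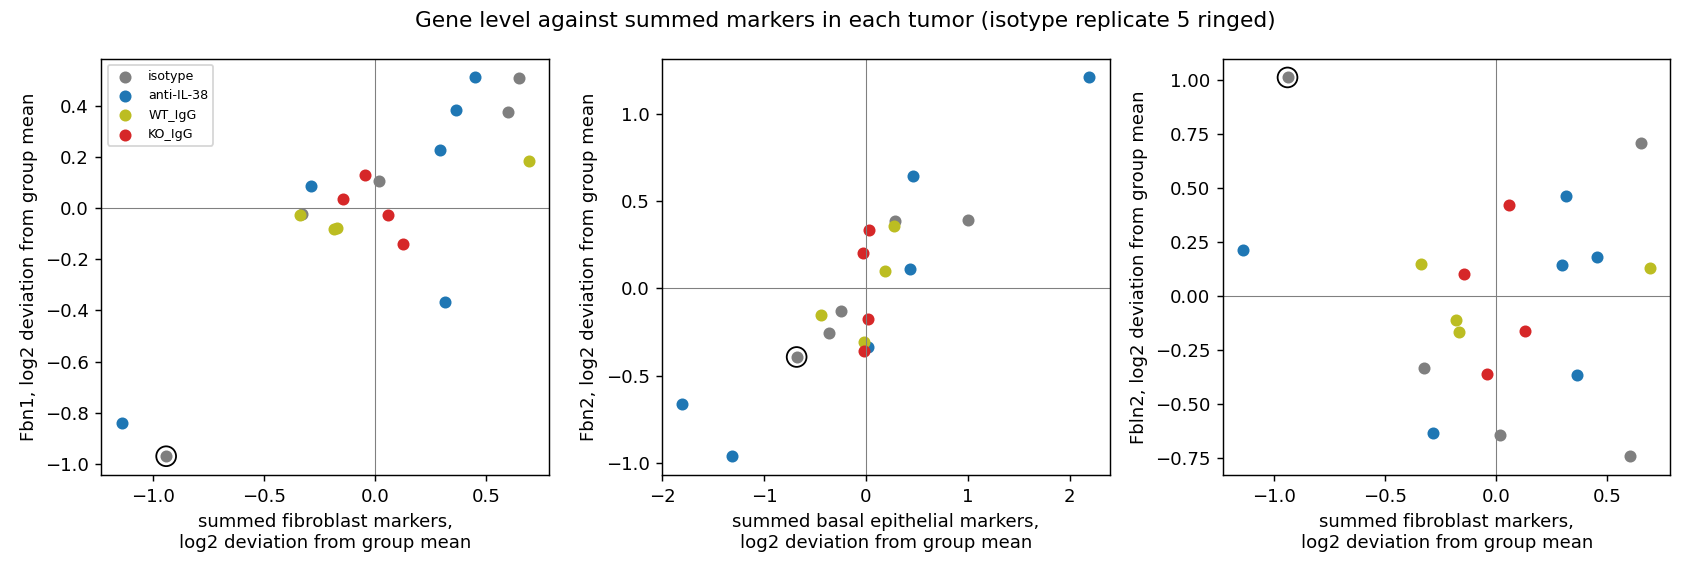
Log2 deviation from the group mean of Fbn1 and Fbln2 against summed fibroblast markers and of Fbn2 against summed basal epithelial markers, 1 point for each of 19 tumors, with isotype replicate 5 ringed. Fbn1 and Fbn2 increase with the marker sums (r of 0.83 and 0.89), and Fbln2 has r of -0.16, which is 0.29 without isotype replicate 5 and anti-IL-38 replicate 3.

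The genes whose within-group pattern over the 19 libraries was most like that of Fbln2, among 13608 with a mean of at least 20 normalized counts, were Mcm7 (r = 0.92), Lingo3 (0.88), Prr5 (0.88), Limd1 (0.87) and Eif5a (0.87). Mcm7 encodes a subunit of the replicative helicase and Eif5a a translation factor. The closest member, Fbln1, ranked 314. None of the 5 was among the 5 closest in the smaller table, where Mcm7 stood at -0.06, so the likeness belongs to these 19 libraries. With the 2 tumors farthest from the median of Mcm7 left out, isotype replicates 1 and 5, its r was 0.87.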

How the data were processed

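Total RNA of the dissociated tumors was sequenced with the QuantSeq 3′ FWD kit. Per the submitters' processing notes, STAR, HTSeq and DESeq2 were used with build GRCm39; the sources used here do not state how strand was handled. The authors deposited normalized counts, a signal obtained by dividing each library's read counts by its size factor, separately in a table of 19 libraries and a table of 8, which share the 4 KO IgG libraries. Dividing by the value of 1 read gave whole reads for 100% of values (tolerance 0.0001%). Only these reads were used for CPM and count tests. For WT IgG replicate 1 that value was 0.996, where rounded and whole values look alike.

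The 10 genes and the gene lists were chosen with earlier results of these data known. Symbols came from GENCODE M21 (47224 of 47643 identifiers). Within each table limma 3.58.1 (R 4.3.3) was fitted with an intensity trend to log2(normalized count + 1), over genes with a mean of at least 5 in the groups compared, with Benjamini-Hochberg adjustment over all genes tested and two-sided 95% intervals. Named beside the 10 members were the 3 genes of smallest p of each further list where they bore on a result, and the 5 genes most like Fbln2. Alternatives were pseudocounts of 0.5 and 5, no filter or a filter of 20, TMM and quantile rescaling, edgeR 4.0.16 (quasi-likelihood), DESeq2 1.42.0, a replicate block and leaving out each library. Scripts were tested on simulated data with 200 genes changed in each comparison. There DESeq2 made 35 to 44 false calls a comparison, and limma and edgeR made 6 to 10. The labels do not state that each library is a separate mouse, so p-values measure the spread between these libraries. A count of 0 allows up to 3 counts, or 0.189 to 0.478 CPM, and such limits cover counting error only.

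Efemp2 (Mus81), Ltbp2 (D030025P21Rik), Fbn1, Fbn2 and Eln overlap genes on the opposite strand and Ltbp1 contains the pseudogene Gm6276, so part of their reads could belong to those genes. Positions are given for promoters only, since the annotation at hand is of another build.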

Additional observations from a re-analysis of the deposited data

Results flagged for a closer look

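Each gene in each group was checked for a library far from the others, 50 checks in all, of which 2.5 would be expected to be found by chance and 2 were. Efemp1 in KO anti-γδ TCR replicate 4 stood at 86.9 normalized counts against 31.4 to 36.2 in the other 3, with a gap of 0.862 of the range. The same tumor had the highest fibroblast marker sum of all libraries (9961 CPM). Ltbp2 in isotype replicate 5 stood at 395.5 normalized counts against 699.4 to 759.1 in the other 4, a gap of 0.874 of the range, in the tumor with the lowest fibroblast marker sum (1448 CPM). The part of the marker sums in these values was not tested.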

How the results depend on the processing

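Counts of called genes moved most. After anti-IL-38 the count of 0 became 75 by DESeq2, 1 with the replicate block (fitted without anti-IL-38 replicate 6, which has no partner) and 0 to 6 when a library was left out (6 without isotype replicate 3). In KO against WT the count of 1 became 0 by edgeR, 305 by DESeq2, 0 with the block and 0 to 7 with a library left out. Under γδ TCR blockade the count of 0 became 1033 by DESeq2 and 0 to 2357 with a library left out (2357 without KO IgG replicate 4, 0 without any other). Same-numbered libraries did not deviate together (r from -0.169 to 0.075), so their numbers do not pair them, and the block changed no call of a member. None of the genes most like Fbln2 (0 of 5) recurred in the smaller table. Directions of uncalled members turned as follows. After anti-IL-38 Fbln1 gave -0.14 by edgeR and by DESeq2, -0.023 with the block and -0.403 to 0.331 with a library left out, Fbln2 -0.057 to 0.381 and Fbln5 -0.084 to 0.50. Under blockade Fbln1 gave -0.691 to 0.071, Eln -0.099 to 0.351 and Ltbp1 -0.075 to 0.309. Fbn1 (0.54) and Fbn2 (1.02) passed under blockade by DESeq2 alone, which called 6.27% of all genes there. Their adjusted p over all alternatives ran from 0.0251 to 0.211 and from 0.0173 to 0.220. The cause of these changes was not tested. With 4 to 6 libraries a group, intervals were wide. The 95% interval of Fbln1 ran from -0.90 to 1.05 after anti-IL-38 and from -1.36 to 0.75 under blockade, so its direction was not settled. Under blockade the interval of Fbn1 lay above 0 (0.19 to 0.86), and limma still did not call it.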
